A study of Mus musculus with 21 samples.

Results

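The 42 genes described here encode proteins that copy DNA and divide the cell. They were taken by symbol from a list of names, chosen with earlier results of these data known: 24 act in mitosis, 15 in DNA replication and 3 at entry into S phase. All 42 were found among the 27179 genes of the count table, and all 42 had enough counts to be tested, as had 13275 genes in all. The cells were cardiac macrophages and splenic monocytes sorted from C57BL/6 mice, and the RNA of 21 bulk libraries was sequenced, 3 in each of 7 groups. The mice were naive or had been challenged with CAWS, a water-soluble complex of the yeast Candida albicans that gives mice a model of Kawasaki disease, a childhood inflammation of arteries. The hearts were taken as 3 separate pools of mice for each treatment. Each pool was split by its surface markers: R1 lacked Ccr2 and had low MHC-II, R2 lacked Ccr2 but had high MHC-II, and R3 had both Ccr2 and high MHC-II. The monocytes carried Ccr2 and came from 3 pools of naive spleens; CAWS monocytes are not analysed here. The labels name no transgene or other treatment, and give no age, sex, number of mice in a pool or time after CAWS. Each value is therefore an average over the mice and cells of a pool, and p-values measure the spread between pools.

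A dividing cell first loads the Mcm2 to Mcm7 helicase onto its DNA with the help of Cdc6 and Cdt1, and cyclin E with its kinase then fires the loaded origins at the start of S phase. Cyclin A and cyclin B with Cdk1 drive the cell into mitosis, where Aurora and Polo kinases, kinesins and the centromere proteins divide the chromosomes. Many tissue macrophages, those of the heart included, can renew by local division, whereas circulating monocytes mostly do not divide. Most replication genes are transcribed under E2F, and most mitotic genes are repressed in resting cells through a promoter element called CHR that works beside CCAAT boxes, the binding sites of NF-Y.

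The letters of these elements were looked for in the promoters of the members. RefSeq promoter windows (GRCm38.p6, 250 bases before to 50 after the start) were found for 35 of the 42 genes, in 39 windows. The CHR letters TTTGAA stood in 17 of 22 windows of mitosis genes (77.3%), in 2 of 17 windows of replication and G1/S genes (11.8%) and in 17.9% of all 32851 windows of the table. The letters CCAAT stood in 20 of 22 (90.9%), 12 of 17 (70.6%) and 37.4% of windows. TTTCCCGC or TTTGGCGC, forms of the E2F site, stood in 0 of 22 mitosis windows, 6 of 17 replication and G1/S windows (35.3%) and 1.56% of all windows. Both strands were searched, and no match of 1 motif overlapped a match of another in the 39 windows. CHR and CCAAT stood together in 17 of the 22 mitosis windows and in 6.95% of all windows. Windows of 1 gene can overlap, as those of Ect2 and of Prc1 do. Counted by gene, TTTGAA stood in 15 of 20 mitosis genes, against 20.2% of all genes with a window. CCAAT stood in 18 of 20, against 41.1%. The E2F letters stood in 6 of 15 replication and G1/S genes, against 1.8%. The windows printed here run 5′ to 3′ on the strand of the gene. They belong to Ccnb2, Cenpa, Mcm3, Mcm5 and Cdk1, members that each passed a test below. Cdk1, the kinase shared by cyclins A and B, passed against monocytes. Capitals mark the motifs.
Ccnb2, minus strand, chr9:70421505-70421804: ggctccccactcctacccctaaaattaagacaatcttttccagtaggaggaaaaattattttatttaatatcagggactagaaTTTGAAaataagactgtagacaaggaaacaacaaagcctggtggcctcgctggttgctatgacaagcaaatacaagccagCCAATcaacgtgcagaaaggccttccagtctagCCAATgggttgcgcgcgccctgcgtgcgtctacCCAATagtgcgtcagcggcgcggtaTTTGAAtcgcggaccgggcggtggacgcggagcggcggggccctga
Cdk1, minus strand, chr10:69352863-69353162: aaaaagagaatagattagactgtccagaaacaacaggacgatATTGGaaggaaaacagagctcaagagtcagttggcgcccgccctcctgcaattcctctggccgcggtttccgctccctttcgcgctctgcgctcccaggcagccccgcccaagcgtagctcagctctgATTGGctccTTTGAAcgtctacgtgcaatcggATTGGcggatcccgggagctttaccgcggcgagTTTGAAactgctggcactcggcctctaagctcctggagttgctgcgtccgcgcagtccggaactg
Cenpa, plus strand, chr5:30666636-30666935: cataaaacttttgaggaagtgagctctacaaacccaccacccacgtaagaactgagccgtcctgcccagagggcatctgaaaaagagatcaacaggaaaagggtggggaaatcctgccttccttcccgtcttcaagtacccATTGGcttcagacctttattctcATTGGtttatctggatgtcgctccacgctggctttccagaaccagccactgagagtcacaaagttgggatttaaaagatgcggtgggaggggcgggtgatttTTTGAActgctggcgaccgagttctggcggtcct
Mcm3, minus strand, chr1:20820263-20820562: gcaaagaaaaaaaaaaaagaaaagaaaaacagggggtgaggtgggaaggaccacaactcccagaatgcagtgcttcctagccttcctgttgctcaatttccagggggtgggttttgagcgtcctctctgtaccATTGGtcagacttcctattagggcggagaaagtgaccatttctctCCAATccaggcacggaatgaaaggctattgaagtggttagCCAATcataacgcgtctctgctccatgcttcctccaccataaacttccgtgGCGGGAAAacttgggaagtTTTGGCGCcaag
Mcm5, plus strand, chr8:75109259-75109558: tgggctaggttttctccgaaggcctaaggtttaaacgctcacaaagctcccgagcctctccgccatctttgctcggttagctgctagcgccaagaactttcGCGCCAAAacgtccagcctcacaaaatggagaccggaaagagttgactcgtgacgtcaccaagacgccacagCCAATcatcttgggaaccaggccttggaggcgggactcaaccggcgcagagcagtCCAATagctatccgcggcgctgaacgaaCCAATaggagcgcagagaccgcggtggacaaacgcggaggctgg
Ccnb2 and Cdk1 each held the CHR letters at 2 places and CCAAT at 3, and Cenpa held CHR once and CCAAT at 2 places. Mcm3 held E2F letters at 2 places and Mcm5 at 1, written there as GCGCCAAA on the printed strand of Mcm5, with CCAAT at 3 places in each and no TTTGAA. The printed windows do not stand for all members. Mcm2 held TTTGAA at 1 place and no E2F letters, and the mitosis genes Birc5 and Nusap1 held none of the motifs. A match of letters is a description and not a measured binding site.

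Libraries held 12800100 to 23006200 counts, with a median of 16763400. Macrophage markers (14 genes) summed to 30561 to 48848 CPM (counts scaled to a common sequencing depth) in the heart libraries and to 39435 to 68286 CPM in the splenic ones, so they did not set the heart apart, and monocyte markers to 20435 to 25381 CPM in the splenic libraries against 4179 to 8037 in the heart. Markers of other cells moved with some groups. The 9 NK and cytotoxic genes summed to 0.993 to 2.07 CPM in naive R1 and 6.7 to 27.2 in CAWS R1, to 3.13 to 3.48 and 14.7 to 34.5 in R2, and to 7.87 to 20.4 and 18.5 to 32.5 in R3. Of these 9, 4 were at 0 in naive R1, among them Ncr1, Gzma and Eomes, and 0 in CAWS R1. The 10 endothelial genes, none of them at 0 in a heart group, summed to 19.3 to 24.7 CPM in naive R1 and 33.8 to 51.3 in CAWS R1, and to 22.7 to 26.3 and 42.7 to 52.3 in R2. The 10 mast cell, basophil and eosinophil genes summed to 3.98 to 4.76 CPM in naive R2 and 15.8 to 23.1 in CAWS R2, with 3 of the 10 at 0 in each. The 12 dendritic cell genes summed to 432 to 487 CPM in naive R1, 382 to 471 in naive R2 and 570 to 836 in naive R3, and to 440 to 479, 521 to 643 and 494 to 629 in CAWS R1, R2 and R3. The 16 neutrophil and granulocyte precursor genes summed to 1099 to 1957 CPM in monocytes and 72.6 to 395 in the heart, where Ctsg and Camp were at 0 in every group. Naive R3 replicate 2 held 277 CPM of the 10 fibroblast and mural genes, against 31.1 in the lowest library of its group. The part of these cells in the results was not tested. The naive heart libraries numbered 2 were low for most members. They were the lowest of their group for 34 of the 42 genes in R1, 34 in R2 and 36 in R3. Of the 24 mitosis genes they were lowest for 21, 21 and 24. This was not particular to them: CAWS R2 replicate 1 was lowest for 32 of the 42 and 20 of the 24. CAWS R3 replicate 2 was lowest for 26 and 16, and monocyte replicate 1 for 25 and 14. The share of all tested genes lowest in each library was not counted. Results against naive cells are also given without the naive libraries numbered 2, a choice made after seeing the data. In bulk samples, fewer cycling cells and less RNA per cell cannot be told apart.

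**Figure D1:**
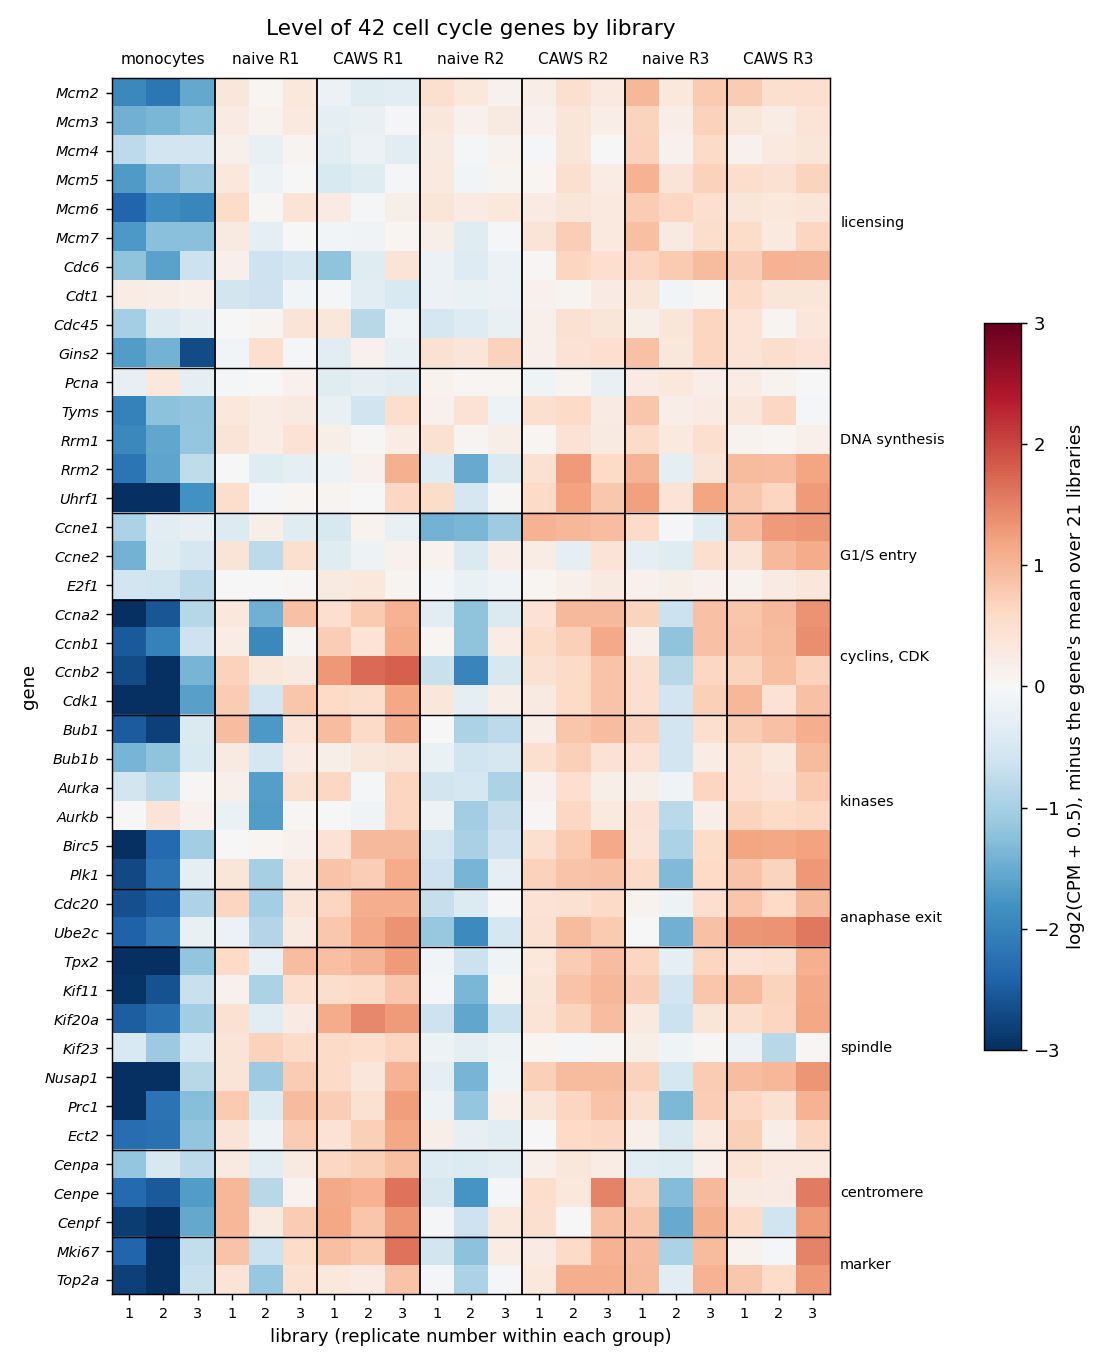
Each column is a library and each row is 1 of the 42 genes, ordered by role, with color for log2(CPM + 0.5) minus the mean of the gene over the 21 libraries. Monocyte columns are low for most genes, and the naive columns numbered 2 are low for most mitosis genes.

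Per base of gene length, Pcna, the clamp that holds DNA polymerase on its template, had the highest level of the 42 genes in each of the 7 groups. Its mean was 41.0 RPKM (counts scaled to depth and to gene length) in monocytes and between 33.5 (CAWS R1) and 50.7 RPKM (naive R3) in the heart. Mcm6, a helicase subunit, came second in naive R1 at 29.9 RPKM and was at 5.51 RPKM in monocytes. The E cyclins were at the low end: Ccne2 was at 0.135 RPKM in monocytes and 0.282 to 0.70 RPKM in heart groups, and Ccne1 was at 0.0798 RPKM in naive R2.

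Replication and mitosis genes did not rank the groups alike. The 15 replication genes summed to 514, 425 and 499 CPM in the libraries of naive R1, 524, 441 and 473 in naive R2, and 708, 536 and 630 in naive R3. After CAWS they summed to 398, 381 and 430 CPM in R1, 471, 579 and 499 in R2, and 564, 531 and 574 in R3, against 175, 219 and 214 in monocytes. The monocyte libraries lay below all heart libraries, and neighbouring heart groups overlapped, CAWS R1 being lowest and naive R3 reaching highest. The 24 mitosis genes summed to 457, 231 and 463 CPM in naive R1, 266, 170 and 287 in naive R2, and 477, 209 and 516 in naive R3. They summed to 521, 539 and 716 CPM in CAWS R1, 407, 519 and 570 in CAWS R2, 494, 449 and 690 in CAWS R3, and 81.9, 81.1 and 191 in monocytes. In R1 and R2 the CAWS libraries lay above all naive libraries of the same population, while in R3 the groups overlapped. The mitosis sum divided by the replication sum was 0.543 to 0.928 in naive R1 and 1.31 to 1.66 in CAWS R1, 0.385 to 0.606 and 0.862 to 1.14 in R2, and 0.390 to 0.818 and 0.846 to 1.2 in R3. Naive and CAWS libraries did not overlap in this ratio in any of the 3 populations; no test was run on these sums.

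**Figure D2:**
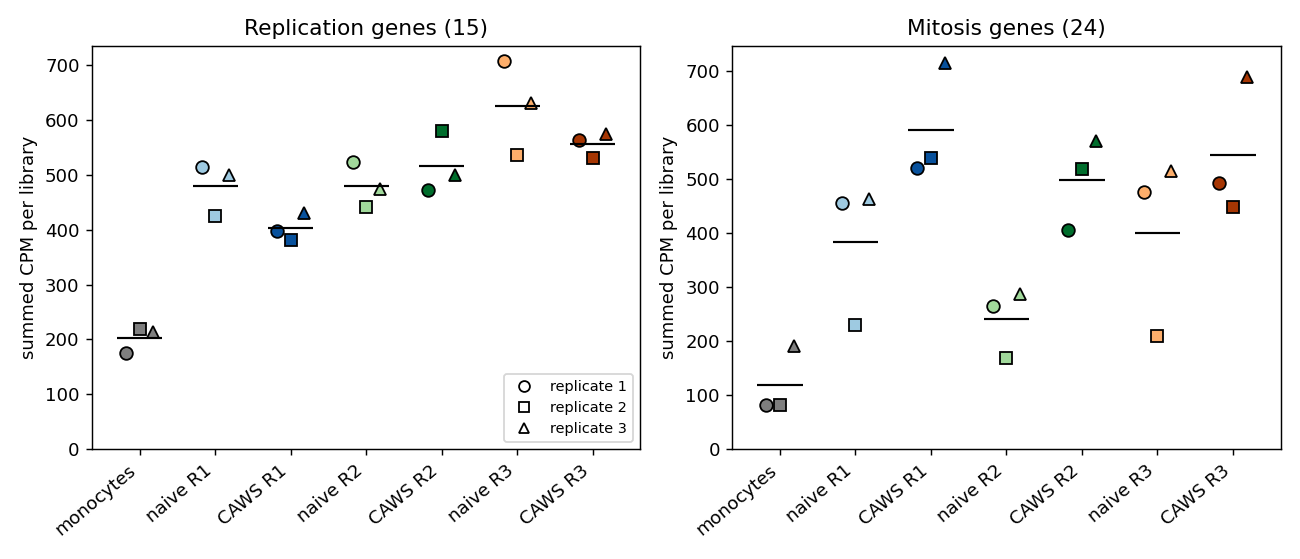
Points are libraries, with a symbol for each replicate number, grouped on the horizontal axis by cell population and treatment; the vertical axes give the summed CPM of the 15 replication genes and of the 24 mitosis genes, and start at 0. In the mitosis sums the CAWS R1 libraries reach 521 to 716 CPM and the naive R2 libraries 170 to 287, and the replication sums of monocytes lie at 175 to 219.

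The 6 genes followed in every group show how wide the spread between pools was. Mki67, which encodes the Ki-67 protein of cycling nuclei, was at 78.3, 27.6 and 64 CPM in naive R1, 29.5, 18.2 and 50.9 in naive R2, and 82.4, 22.0 and 83.4 in naive R3. After CAWS it was at 80.7, 75.0 and 134 CPM in R1, 51.0, 64.3 and 90.1 in R2, and 46.2, 41.7 and 122 in R3, with 7.84, 2.80 and 25.9 in monocytes. Naive and CAWS ranges overlapped for Mki67 in R1 and R3 and met without overlap in R2, and its change in R1 missed the test at a log2 fold change of 0.77 ± 0.63 (SE; adjusted p = 0.518, edgeR's quasi-likelihood test). For this gene monocyte replicate 3 stood above the other monocyte libraries. Top2a, the topoisomerase that untangles copied DNA, was at 50.1, 16.9 and 52.0 CPM in naive R1, 36.2, 19.2 and 36.9 in naive R2, and 72.8, 29.4 and 77.5 in naive R3. Its CAWS levels were 46.7, 44.4 and 68.8 CPM in R1, 46.9, 80.4 and 80.3 in R2, and 65.8, 55.2 and 93.8 in R3, and its monocyte levels 4.95, 2.93 and 23.6. For Top2a, R2 was the population in which all CAWS libraries lay above all naive ones.

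Ccna2, cyclin A2, was at 19, 5.21 and 28.0 CPM in naive R1, 11.9, 6.31 and 11 in naive R2, and 24.3, 9.44 and 28.3 in naive R3. With CAWS it was at 21.6, 26.5 and 31.6 CPM in R1, 20.6, 30.3 and 29.9 in R2, and 27.3, 30.2 and 39.3 in R3, and in monocytes at 1.29, 2.12 and 8.07. Its groups overlapped between naive and CAWS in R1 and R3 and not in R2. Cdk1 was at 16.6, 6.27 and 17.4 CPM in naive R1, 12.3, 7.62 and 10.9 in naive R2, and 13.7, 6.23 and 15.9 in naive R3. Its CAWS levels were 14.6, 14 and 21.9 CPM in R1, 11.6, 14.6 and 17.7 in R2, and 19.5, 13.1 and 17.9 in R3, and its monocyte levels 0.321, 0.750 and 2.75. No naive and CAWS pair of groups was separate for Cdk1, and every heart library lay above every monocyte library.

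The replication genes varied less between pools. Pcna was at 51.9, 53.8 and 58.1 CPM in naive R1, 57.2, 55.8 and 55.5 in naive R2, 63.4, 66.9 and 61.3 in naive R3, and 44.6, 66.2 and 44.3 in monocytes. After CAWS it was at 41.1, 43.3 and 42.2 CPM in R1, 48.7, 56.4 and 45.9 in R2, and 62.6, 56.8 and 52.6 in R3. All CAWS R1 libraries lay below all naive R1 libraries for Pcna, but the change missed the test. Mcm2 was at 33.3, 27.4 and 32.7 CPM in naive R1, 37.0, 33.0 and 28.8 in naive R2, 53.0, 32.9 and 45.7 in naive R3, and 6.49, 5.46 and 8.68 in monocytes. Its CAWS levels were 23.2, 20.1 and 21.1 CPM in R1, 30.2, 36.6 and 32.4 in R2, and 45.1, 36.6 and 37.6 in R3. The 3 CAWS R1 libraries were the lowest of the 18 heart libraries for Mcm2.

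**Figure D3:**
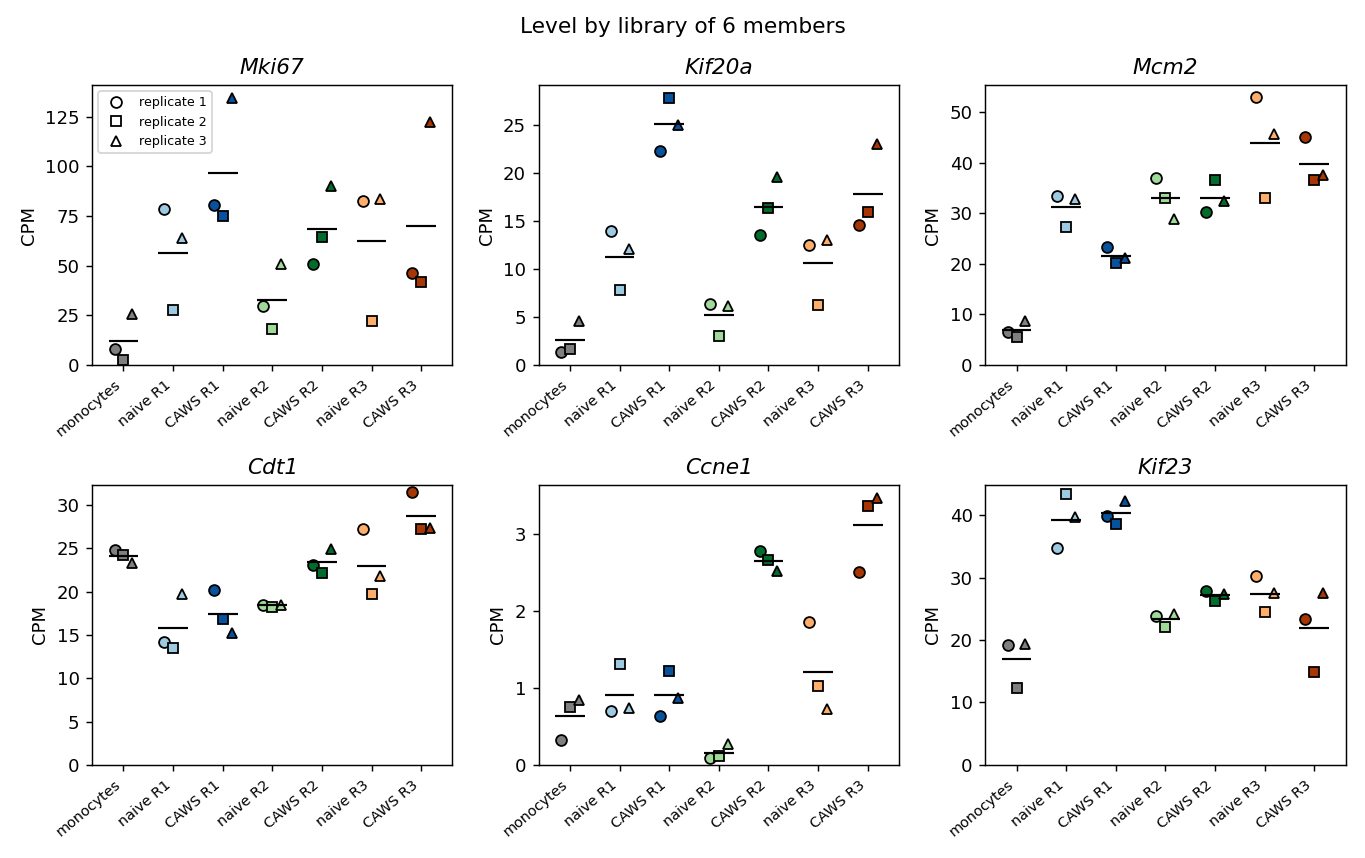
Points are libraries, with a symbol for each replicate number, and the vertical axis of each of the 6 panels is the level of 1 gene in CPM from 0. Ccne1 is near 0 in naive R2 and at 2.51 to 2.78 CPM in CAWS R2, and Mcm2 lies lowest of the heart groups in CAWS R1.

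The first question of the design was how CAWS changed each macrophage population. In R1, 3 of the 42 genes rose, all of them mitosis genes, and 2 fell, both of them helicase subunits, where 6.07% of all tested genes rose and 2.87% fell. All 24 mitosis genes had a positive log2 fold change, with a median of 0.65, and 11 of the 15 replication genes a negative one, with a median of -0.29; the median of all tested genes was 0.03. All CAWS R1 libraries lay above all naive R1 libraries for 10 of the 42 genes, 9 of them mitosis genes, and below for 4, all of them replication genes, where 16.1% and 12.4% of tested genes did so. Fitted on the libraries of these 2 groups alone, 6 members rose and 3 fell, beside 6.63% and 4.44% of tested genes. The NK and endothelial sums given above were also higher in CAWS R1, without overlap. So were mast cell, fibroblast and mural, cardiomyocyte, and B and plasma cell sums. Cardiomyocyte sums were at 107 to 125 CPM against 58.3 to 84.0 in naive R1. Fibroblast and mural sums were at 34.5 to 39.5 against 20.7 to 34.2. T cell sums overlapped, but of the T cell genes 10 were at 0 in naive R1 and 1 in CAWS R1. Monocyte sums were lower without overlap. The part of these cells was not tested.

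Cenpa, the histone that marks centromeres and whose promoter is printed above, was at 28.5, 18.7 and 28.3 CPM in naive R1 and 36.4, 38.8 and 44.8 in CAWS R1. It rose 1.59-fold (log2 fold change 0.67 ± 0.17, adjusted p = 0.0134). Kif20a, a kinesin of the dividing cell's midzone, was at 14, 7.82 and 12.1 CPM and then at 22.3, 27.9 and 25.1, a 2.20-fold rise (log2 1.14 ± 0.29, adjusted p = 0.0153). All 3 CAWS libraries were above all naive ones for both genes. Ccnb2, cyclin B2, was at 23.0, 17.8 and 16.9 CPM in naive R1 and 35.3, 46.6 and 49.6 in CAWS R1, a 2.27-fold rise (log2 1.18 ± 0.33, adjusted p = 0.0307). Mcm3, a helicase subunit whose promoter is printed above, was at 73.0, 66.2 and 75.4 CPM and then at 50.2, 52.2 and 59.2. It fell by 0.41 ± 0.12 on the log2 scale (adjusted p = 0.0407). Mcm2 fell by 0.54 ± 0.17 on the log2 scale (adjusted p = 0.047). None of these 5 calls held in each of the 6 fits that left out 1 library of R1. Without naive R1 replicate 2 the 3 rises were lost, with Cenpa at an adjusted p of 0.108, Kif20a at 0.0864 and Ccnb2 at 0.112, and 0 genes rose and 2 fell. Without naive R1 replicate 1 or 3 the counts were 2 and 0, and without CAWS R1 replicate 1, 2 or 3 they were 3 and 0, 1 and 0, and 1 and 1. With the 3 naive libraries numbered 2 left out together, 2 members rose and 2 fell, beside 2.99% and 1.35% of tested genes, and Cenpa was at an adjusted p of 0.132.

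In R2, 9 of the 42 members rose with CAWS and 0 fell, where 6.79% of tested genes rose and 3.5% fell. The median log2 fold change was 0.85 over the members and 0.02 over all tested genes. All 24 mitosis genes were positive with a median of 1.09, and 7 of them rose. Of the 15 replication genes 10 were positive with a median of 0.16, and 1 rose, as did Ccne1 of the 3 entry genes. All CAWS libraries lay above all naive ones for 29 of the 42 genes, 21 of them mitosis genes, where 20.3% of tested genes did so, and below for 0. Fitted on the libraries of R2 alone, 21 members rose, beside 11.9% of tested genes. The NK, endothelial, mast cell and dendritic cell sums given above were also higher in CAWS R2, without overlap. So were T cell sums, at 48.7 to 55.5 CPM against 35.7 to 41.3 in naive R2. Fibroblast and mural sums were at 35.1 to 57.0 against 21.7 to 31.9. Of the T cell genes 5 were at 0 in naive R2 and 1 in CAWS R2. Erythroid sums were lower, at 53.5 to 65.7 against 66.7 to 77.6. The part of these cells was not tested.

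Ccne1, cyclin E1, which fires the start of S phase, changed most. It was at 0.0903, 0.114 and 0.264 CPM in naive R2, a total of 10 counts over the 3 libraries, and at 2.78, 2.66 and 2.51 CPM in CAWS R2, a total of 133 counts. The rise was 15.8-fold (log2 3.99 ± 0.49, adjusted p = 8.16e-06), from a naive level that rests on 2 to 6 counts per library. Birc5, survivin, a subunit of the Aurora B complex, was at 4.65, 3.24 and 4.27 CPM in naive R2 and 9.65, 12.1 and 15.6 in CAWS R2, a 3.04-fold rise (log2 1.60 ± 0.33, adjusted p = 0.00286). Kif20a was at 6.37, 3.07 and 6.21 CPM and then at 13.6, 16.4 and 19.6, a 3.11-fold rise (log2 1.64 ± 0.32, adjusted p = 0.00173). Ccnb2 was at 8.63, 3.18 and 9.82 CPM and then at 19.2, 21 and 25.6, a 2.98-fold rise (log2 1.57 ± 0.37, adjusted p = 0.0106). These 4 genes did not overlap between the groups, and their calls held in each of the 6 fits that left out 1 library.

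The other 5 rises in R2 missed the test in some of the 6 fits. Rrm2, the regulated subunit of the enzyme that makes deoxynucleotides, was at 5.65, 2.33 and 5.51 CPM in naive R2 and 10.6, 19 and 11.8 in CAWS R2, a 3.02-fold rise (log2 1.59 ± 0.39, adjusted p = 0.0122). Bub1b, a spindle checkpoint protein, was at 18.9, 14.2 and 15.1 CPM and then at 30.5, 35.7 and 29.3, a 1.98-fold rise (log2 0.99 ± 0.25, adjusted p = 0.0157). Cenpa rose 1.56-fold (log2 0.64 ± 0.17, adjusted p = 0.0192), Ube2c, the ubiquitin enzyme of anaphase, 3.80-fold (log2 1.92 ± 0.52, adjusted p = 0.024), and Plk1, the Polo kinase, 3.08-fold (log2 1.62 ± 0.49, adjusted p = 0.0409). None of the 5 overlapped between naive R2 and CAWS R2. Without naive R2 replicate 2 or CAWS R2 replicate 2 the count fell to 4, and Rrm2 was at an adjusted p of 0.0594 and 0.0881. Plk1 was lost without any 1 of the 6 libraries. With the naive libraries numbered 2 left out together, 9 members rose, beside 4.17% of tested genes, with Cenpa at an adjusted p of 0.0513.

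In R3, the Ccr2-positive population, 2 of 42 members rose and 0 fell, where 6.7% of tested genes rose and 8.29% fell. The mitosis genes had a median log2 fold change of 0.55, with 23 of 24 positive, and the replication genes -0.15, with 12 of 15 negative. All CAWS libraries lay above all naive ones for 12 members and below for 2, where 16.4% and 18.5% of tested genes did so. Ccne1 was at 1.85, 1.03 and 0.728 CPM in naive R3 and 2.50, 3.37 and 3.47 in CAWS R3, a 2.55-fold rise (log2 1.35 ± 0.34, adjusted p = 0.0083) that held without any 1 library. Birc5 was at 9.20, 3.32 and 10.3 CPM and then at 16.2, 16 and 16.3, a 2.15-fold rise (log2 1.11 ± 0.31, adjusted p = 0.0204). Neither gene overlapped between the groups. Birc5 missed the test without naive R3 replicate 2 (adjusted p = 0.0998), without CAWS R3 replicate 2 (0.0617) and without the naive libraries numbered 2 (0.106), where 1 member rose beside 5.25% of tested genes. The count was 4 without naive R3 replicate 3, and 4 when the libraries of R3 were fitted alone, beside 9.68% of tested genes. Erythroid sums were lower in CAWS R3 without overlap, at 14.7 to 17.8 CPM against 30.6 to 50.5 in naive R3. So were cardiomyocyte sums, at 78.0 to 119 against 146 to 177. The other marker sums overlapped. The part of these cells was not tested.

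**Figure D4:**
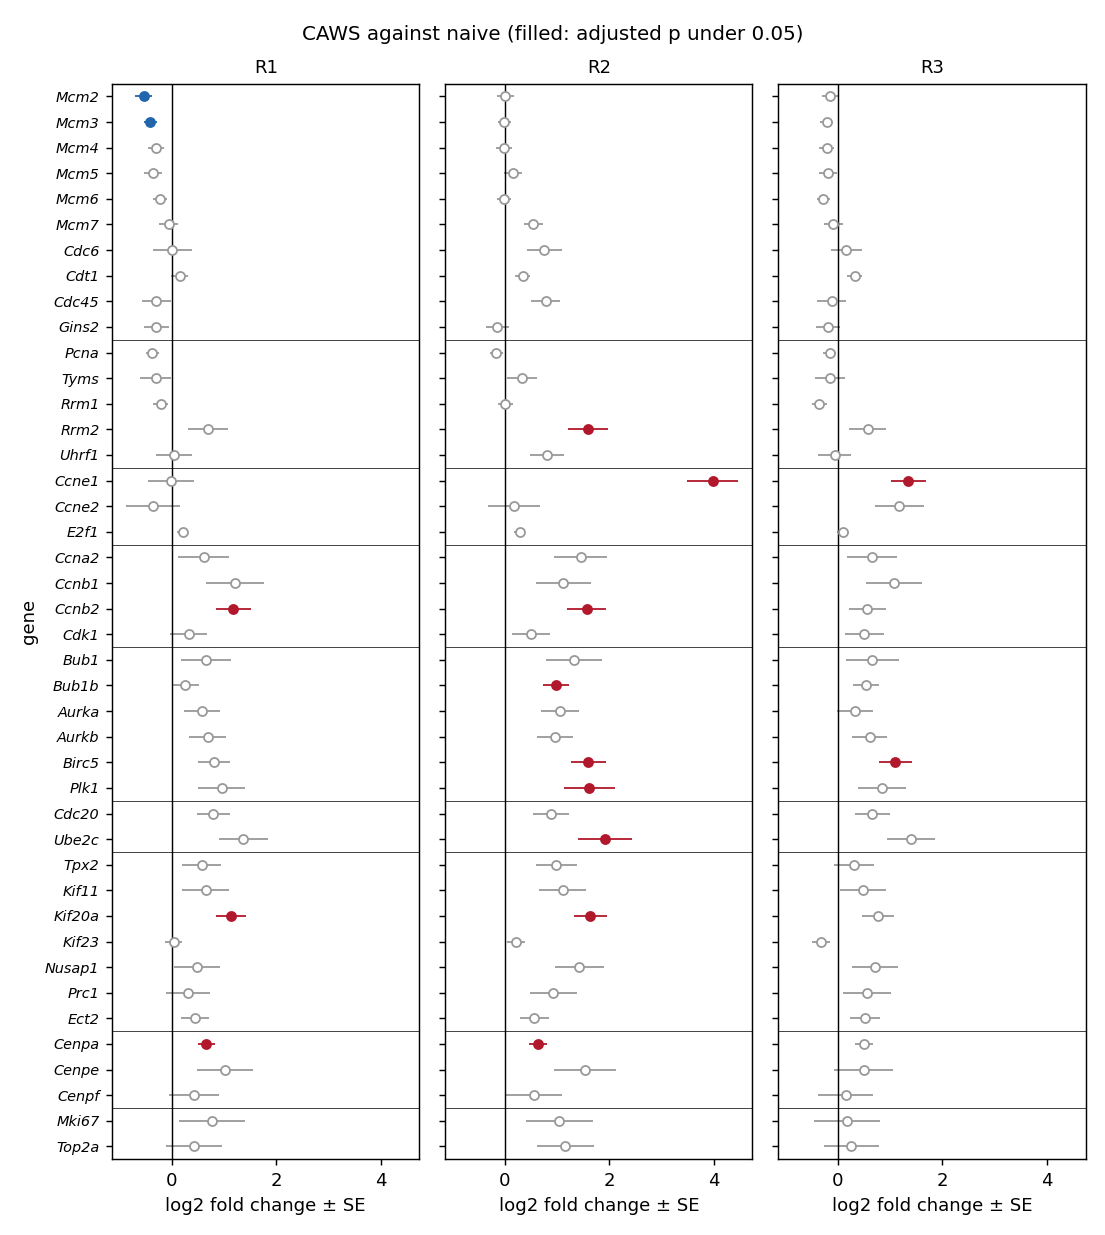
Each panel is a population, each point the log2 fold change of 1 gene in CAWS against naive cells from edgeR, with its SE as a bar, and genes past the test are marked. In R1 the 24 mitosis genes lie right of 0 and 11 of the 15 replication genes left of it, and in R2 Ccne1 stands at 3.99.

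The difference between these effects was tested as an interaction. Ccne1 changed more in R2 than in R1, by 3.99 ± 0.71 on the log2 scale (adjusted p = 0.026), and was the 1 member past this test, where 0.0377% of tested genes had a larger effect in R2 and 0.0151% a smaller one. In R1, Ccne1 was at 0.693, 1.30 and 0.734 CPM in naive and 0.631, 1.22 and 0.863 in CAWS libraries, ranges that overlapped. The Ccne1 effect was smaller in R3 than in R2, by a log2 difference of -2.63 ± 0.67 (adjusted p = 0.0327), where 0.0979% of tested genes had a larger effect in R3 and 2.23% a smaller one. With the pool as a block this difference was -2.60 with an adjusted p of 0.0525. Both calls were lost without some single libraries. The first was lost without naive R1 replicate 2 (adjusted p = 0.109) or 3 (0.0523), naive R2 replicate 1 (0.12), 2 (0.138) or 3 (0.0507), CAWS R1 replicate 1 (0.0605), or CAWS R2 replicate 1 (0.0543) or 2 (0.0784). The R3 and R2 difference was lost without naive R2 replicate 1 (0.163) or 2 (0.151), naive R3 replicate 1 (0.141), CAWS R2 replicate 1 (0.0585) or 2 (0.0785), or CAWS R3 replicate 1 (0.0911) or 2 (0.0605). Without the naive libraries numbered 2 the adjusted p values were 0.326 and 0.127. Between R3 and R1, 0 members passed edgeR's test and 0 passed that of DESeq2, where 0.0979% and 2.16% of tested genes did in edgeR. An unadjusted p under 0.05 was reached by 2, Ccne1 (log2 difference 1.36 ± 0.56, adjusted p = 0.276) and Ccne2 (1.53 ± 0.70, adjusted p = 0.347), with Mcm2 next (0.39 ± 0.23, adjusted p = 0.504).

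The naive populations were compared next. Against naive R1, 6 members were higher in naive R3 and 1 was lower, where 12.5% and 10.7% of tested genes were, so the share of members was near that of all genes. The 6 are among the 10 licensing genes, which prepare origins for copying; Mcm3, Mcm6, Cdc45 and Gins2 missed the test (adjusted p = 0.0598, 0.123, 0.498 and 0.1). All 15 replication genes had a positive difference, with a median log2 of 0.49, beside 0.06 for the mitosis genes. Mcm5 was at 47.1, 33.8 and 37.9 CPM in naive R1 and 78.3, 49.8 and 61.7 in naive R3 (log2 0.67 ± 0.17, adjusted p = 0.00651). Cdc6, which loads the helicase, was at 3.76, 1.99 and 2.14 CPM and 5.44, 6.12 and 6.88 (log2 1.18 ± 0.33, adjusted p = 0.0117). Cdt1, its partner, was at 14.1, 13.5 and 19.8 CPM and 27.2, 19.8 and 21.8 (log2 0.54 ± 0.15, adjusted p = 0.0118). For Mcm5, Cdc6 and Cdt1 all R3 libraries were above all R1 libraries. Mcm4, Mcm7 and Mcm2 were also higher, with log2 differences of 0.47 ± 0.15, 0.58 ± 0.18 and 0.49 ± 0.16 (adjusted p = 0.0233, 0.0239 and 0.03), and their libraries overlapped. Kif23, a kinesin of cytokinesis, was lower in R3, at 30.3, 24.5 and 27.6 CPM against 34.8, 43.4 and 39.7 (log2 -0.52 ± 0.17, adjusted p = 0.0302). None of the 7 calls held without each library in turn. The counts higher and lower were 2 and 0 without naive R1 replicate 2, 3 and 0 without naive R1 replicate 3, 1 and 1 without naive R3 replicate 1, and 4 and 0 without naive R3 replicate 3. Without the 3 libraries numbered 2, 5 were higher, beside 7.43% of tested genes, and Mcm7, Cdc6, Cdt1 and Kif23 missed the test (adjusted p = 0.0524, 0.124, 0.0658 and 0.28). The dendritic cell sums were higher in naive R3 than in naive R1 without overlap. So were NK, endothelial, mast cell and cardiomyocyte sums, the last at 146 to 177 CPM against 58.3 to 84.0. Macrophage, T cell and erythroid sums were lower without overlap. The part of these cells was not tested.

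Against naive R1, naive R2 had 0 members higher and 4 lower, where 3.88% and 3.25% of tested genes were. Of the 24 mitosis genes 23 were negative, with a median log2 of -0.76, beside 0.03 for the replication genes. Kif23 was at 23.8, 22.2 and 24.2 CPM in naive R2, below all naive R1 libraries (log2 -0.75 ± 0.17, adjusted p = 0.00653). Ccnb2, at the levels given above, was lower by 1.39 ± 0.37 on the log2 scale (adjusted p = 0.028), Kif20a by 1.10 ± 0.33 (adjusted p = 0.0472) and Ccne1 by 2.44 ± 0.63 (adjusted p = 0.0162), and none of the 4 overlapped between the groups. Kif23 alone held without each library in turn. The count was 2 without naive R1 replicate 1 or 3 and 1 without naive R2 replicate 1 or 2. With the libraries numbered 2 left out together the 4 genes missed the test, with adjusted p from 0.0507 for Ccnb2 to 0.219 for Ccne1. Monocyte sums (4351 to 4945 CPM against 6884 to 8037) and macrophage sums were lower in naive R2 than in naive R1 without overlap. Cardiomyocyte, T cell, NK, and B and plasma cell sums were higher without overlap. The part of these cells was not tested.

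Between the MHC-II-high populations of naive hearts, 5 members were higher in R3 than in R2 and 0 lower, where 6.63% and 5.77% of tested genes were. Ccne1 differed by a log2 of 2.88 ± 0.59 (adjusted p = 0.00159), Mcm5 by 0.64 ± 0.17 (adjusted p = 0.0163), Mcm7 by 0.65 ± 0.18 (adjusted p = 0.0185) and Cdc6 by 1.15 ± 0.32 (adjusted p = 0.0193). Cdc45, which activates the loaded helicase, was at 2.57, 2.84 and 3.26 CPM in naive R2 and 4.40, 5.09 and 6.35 in naive R3 (log2 0.86 ± 0.27, adjusted p = 0.0426). In the naive R2 libraries Mcm5 was at 46.4, 35.4 and 40.1 CPM, Mcm7 at 30.7, 20.9 and 26.3, and Cdc6 at 2.89, 2.44 and 2.91, and for each of these 3 all naive R3 libraries were higher. With the pool as a block 12 were higher, beside 7.22% of tested genes, and the added ones included Ccnb2, Kif20a, Rrm2 and Uhrf1, which copies DNA methylation. Ccne1 held without each library in turn. The count was 1 without naive R2 replicate 2 or 3, 2 without naive R3 replicate 1, and 3 without naive R3 replicate 3. It was 12 without naive R3 replicate 2. That library was the lowest of its group for 36 of the 42 members and the highest in fibroblast and mural markers. The part of either was not tested. Without the 3 libraries numbered 2, 5 were higher, beside 3.5% of tested genes, but Cdc6 (adjusted p = 0.136) and Cdc45 (0.183) were not among them. The dendritic cell and NK sums were also higher in naive R3 than in naive R2 without overlap. So were endothelial sums (29.4 to 44.4 CPM against 22.7 to 26.3) and monocyte sums (6402 to 7367 against 4351 to 4945). Macrophage, T cell and erythroid sums were lower without overlap. The part of these cells was not tested.

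After CAWS, R3 was set against R1 in the same way. Of the 42 members 10 were higher in CAWS R3 and 1 lower, where 13.1% and 16.3% of tested genes were. Replication genes made up 8 of the 10, 7 of them among the 10 licensing genes (Mcm6, Cdc45 and Gins2 missed the test), and 14 of the 15 were positive with a median log2 of 0.55, beside 0.02 for the mitosis genes. The CAWS R1 libraries of this comparison are those in which Mcm2 and Mcm3 had fallen against naive R1. Mcm2 was 1.85-fold higher in CAWS R3 (log2 0.89 ± 0.17, adjusted p = 0.000302). Ccne1 was 3.48-fold higher (log2 1.80 ± 0.35, adjusted p = 0.000354). Cdt1 was at 20.2, 16.9 and 15.3 CPM in CAWS R1 and 31.5, 27.3 and 27.4 in CAWS R3 (log2 0.72 ± 0.15, adjusted p = 0.000895). Both groups were separate for these 3 genes. Mcm5 was at 27.3, 29.5 and 36.0 CPM and 54.4, 51.8 and 60.0 (log2 0.84 ± 0.18, adjusted p = 0.000962), and Mcm3 in CAWS R3 at 78.4, 71.9 and 81.3 (log2 0.52 ± 0.12, adjusted p = 0.00284). Cdc6 differed by a log2 of 1.33 ± 0.33, Mcm4 by 0.55 ± 0.15, Pcna by 0.44 ± 0.13, Mcm7 by 0.55 ± 0.18 and Ccne2, the second cyclin E, by 1.32 ± 0.47 (adjusted p = 0.00372, 0.0074, 0.0133, 0.0277 and 0.0373). Kif23 was lower in CAWS R3, at 23.4, 14.8 and 27.6 CPM against 39.9, 38.7 and 42.4 (log2 -0.87 ± 0.17, adjusted p = 0.000523). Of the 11 calls 8 held without each library in turn; Mcm7, Ccne2 and Pcna did not, and the count ran from 9 to 12. The dendritic cell sums were higher in CAWS R3 than in CAWS R1 without overlap. So were monocyte sums (6705 to 7229 CPM against 5571 to 6225) and fibroblast sums (40.1 to 44.4 against 34.5 to 39.5). Macrophage, T cell, erythroid and neutrophil sums were lower without overlap. The part of these cells was not tested.

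Comparisons with CAWS R2 gave 2 calls against R1 and 0 against R3. Against CAWS R1, Ccne1 (log2 1.56 ± 0.35, adjusted p = 0.0105) and Mcm2 (log2 0.62 ± 0.17, adjusted p = 0.0352) were higher and 0 members lower, where 2.46% and 1.31% of tested genes were. The R1 and R2 libraries of both genes were separate. With the pool as a block 5 were higher and 1 lower, beside 2.84% and 1.85% of tested genes: Mcm3, Mcm5 and Mcm7 joined the higher genes, and Ccnb2 was lower by 0.99 ± 0.27 on the log2 scale (adjusted p = 0.0432). Mcm2 missed the test without any 1 of the 6 libraries, with adjusted p from 0.0529 to 0.202, and neither gene passed without CAWS R1 replicate 1. Dendritic cell, mast cell, T cell and cardiomyocyte sums were higher in CAWS R2 than in CAWS R1 without overlap. The T cell sums were at 48.7 to 55.5 CPM against 32.7 to 41.7. Monocyte and macrophage sums were lower without overlap. The part of these cells was not tested. Between CAWS R3 and CAWS R2, 0 members passed edgeR's test and 0 that of DESeq2, where 5.51% of tested genes were higher and 9.76% lower in edgeR. The 1 member with an unadjusted p under 0.05 was Ccne2 (log2 0.98 ± 0.46, adjusted p = 0.166), followed by Cdt1 (0.29 ± 0.15, adjusted p = 0.203) and Cdc6 (0.55 ± 0.31, adjusted p = 0.257).

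Most members were higher in heart macrophages than in splenic monocytes. In naive R1, 33 of the 42 were higher and 1 lower, where 32.5% and 30.8% of tested genes were; in naive R2, 25 and 2, where 33.1% and 30.5% were; in naive R3, 36 and 0, where 31.9% and 27.1% were; and in CAWS R3, 38 and 0, where 24.8% and 22.8% were. The median log2 differences of the members were 1.83, 1.40, 2.07 and 2.50, and those of all tested genes 0.05, 0.08, 0.06 and 0.01. The 4 comparisons share the monocyte libraries. The tissue and the cell type differ together here, so they cannot be told apart, and CAWS R3 is set against monocytes of naive mice. Without the naive libraries numbered 2, 37 members were higher and 1 lower in naive R1, beside 30.6% and 28.9% of tested genes. The counts were 30 and 3 in naive R2, beside 30.9% and 28.8%, and 37 and 0 in naive R3, where 28.9% of tested genes were higher.

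The helicase genes Mcm6, Mcm3 and Mcm2 had the smallest adjusted p in 3 of the 4 comparisons, and Mcm6, Rrm1 and Mcm3 in naive R1. Mcm6 was at 12.6, 18.3 and 17 CPM in monocytes, 99.99, 69.8 and 90.5 in naive R1, 87.7, 80.8 and 84.4 in naive R2, 115, 104 and 96.5 in naive R3, and 86.8, 84.9 and 87.7 in CAWS R3. It was 5.43-fold higher in naive R1 (adjusted p = 1.18e-12), 5.28-fold in naive R2 (1.54e-12), 6.58-fold in naive R3 (3.24e-13) and 5.41-fold in CAWS R3 (3.36e-12), with log2 differences of 2.44, 2.40, 2.72 and 2.44, each ± 0.14. Mcm3 was at 22.5, 23.5 and 26.1 CPM in monocytes and 66.2 or more in each naive heart library, with log2 differences of 1.57 to 1.89. Mcm2 differed by 2.17 to 2.66 on the log2 scale, Mcm5 by 1.45 to 2.12, and Rrm1, the large subunit of the deoxynucleotide enzyme, by 1.64 to 2.00. Rrm1 was at 15.1, 19.8 and 26.1 CPM in monocytes and 77.7, 68.5 and 80.4 in naive R1. Gins2, part of the active helicase, was at 1.74, 2.18 and 0.616 CPM in monocytes, 6.18, 9.68 and 6.34 in naive R1 and 9.30, 8.64 and 10.9 in naive R2, log2 differences of 2.33 ± 0.32 and 2.72 ± 0.30. Mcm7 was at 7.91, 11.1 and 11 CPM in monocytes and differed by 2.03 ± 0.20 in naive R3 and 1.95 ± 0.20 in CAWS R3. The monocyte and heart libraries of these helicase genes and of Rrm1 did not overlap.

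Monocytes were not low for every member. Cdt1 was at 24.8, 24.2 and 23.3 CPM in monocytes and was lower in naive R1 (log2 -0.62 ± 0.15, adjusted p = 0.00139) and naive R2 (-0.39 ± 0.15, adjusted p = 0.0276; 0.0523 to 0.0592 without naive R2 replicate 1, 2 or 3 or monocyte replicate 1), while in naive R3 (-0.07, adjusted p = 0.699) and CAWS R3 (0.25, adjusted p = 0.169) it missed the test. Ccne1 was lower in naive R2 (log2 -1.96 ± 0.69, adjusted p = 0.0163), at 0.321, 0.750 and 0.840 CPM in monocytes. That call was lost without naive R2 replicate 1 (adjusted p = 0.0685), monocyte replicate 2 (0.0587) or monocyte replicate 3 (0.0848). Aurkb, the Aurora B kinase, was at 13.4, 17.7 and 14.8 CPM in monocytes and 11.7, 3.91 and 13.8 in naive R1, and missed the test in the 4 comparisons over all libraries. It passed as lower in naive R2 with DESeq2 (adjusted p = 0.035), with only the groups compared (0.027), with a block for the number shared by all groups (0.0451), without naive R2 replicate 1 (0.0274) and without the naive libraries numbered 2 (0.0339), and as higher in CAWS R3 with only the groups compared (0.0452). Pcna missed it in naive R1 (log2 0.08 ± 0.13, adjusted p = 0.605), naive R2 (0.12, adjusted p = 0.416) and CAWS R3 (0.15, adjusted p = 0.354), and passed in naive R3 (0.31 ± 0.13, adjusted p = 0.0446). The misses in naive R1, naive R2 and CAWS R3 depended on monocyte replicate 2, at 66.2 CPM against 44.6 and 44.3 in the other 2. Without it Pcna was higher in naive R1 (log2 0.31, adjusted p = 0.0187), naive R2 (0.34, 0.00907) and CAWS R3 (0.42, 0.00306). In naive R3 the call was lost without monocyte replicate 1 (adjusted p = 0.336) or 3 (0.355), without naive R3 replicate 1 (0.0781), 2 (0.123) or 3 (0.0574), and without the naive libraries numbered 2 (0.225). The same call was lost in edgeR with another scaling (adjusted p = 0.079), no filter (0.112) or only the groups compared (0.235), and in DESeq2 (0.0838). The 3 monocyte libraries differed among themselves in mitosis genes, replicate 3 being the highest for Mki67, Top2a, Ccna2 and Cdk1. Ccnb1, cyclin B1, had no count in monocyte replicate 1, and Cenpf, a kinetochore protein, had none in replicate 2. The neutrophil and granulocyte precursor markers, given above, were higher in these libraries than in the heart, and their part in these differences was not tested. With each library left out in turn, 27, 16, 30 and 35 of the calls held in naive R1, R2, R3 and CAWS R3. The count for naive R2 ran from 18 to 32.

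**Figure D5:**
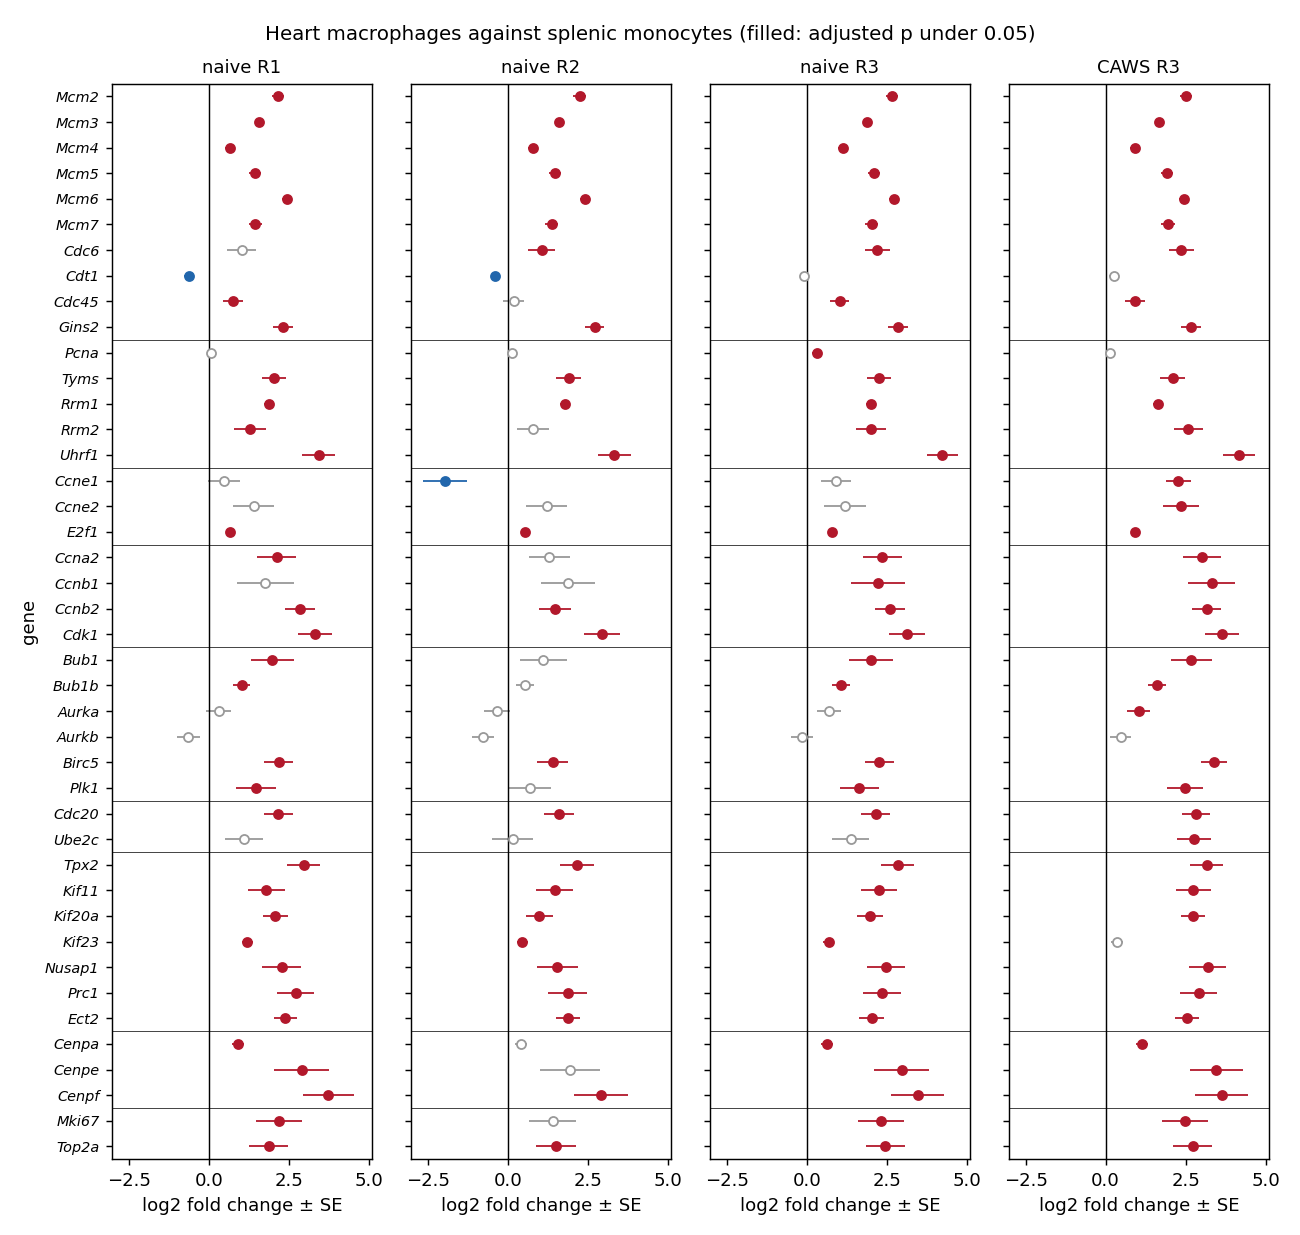
Each panel sets a heart group against splenic monocytes, with the log2 fold change of each of the 42 genes from edgeR and its SE, and genes past the test marked. The helicase genes Mcm2 to Mcm7 lie right of 0 in all 4 panels, and Cdt1 lies left of 0 in naive R1 and R2.

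Other genes of the same pathways, from lists chosen with earlier results of these data known, were counted in the same way. Of 36 further replication genes, CAWS raised 1 and lowered 1 in R1 (median log2 -0.08), raised 5 in R2 (0.24) and lowered 1 in R3 (-0.09). Over all tested genes CAWS raised 6.07% and lowered 2.87% in R1, 6.79% and 3.5% in R2, and 6.7% and 8.29% in R3; the counts of each list in these 3 comparisons stand beside those shares, and 1 of 36 is not above them. Pole2, a DNA polymerase subunit, fell in R1 by 1.19 ± 0.20 on the log2 scale (adjusted p = 0.000702), while Dna2, a nuclease of DNA ends, rose there (log2 1.37 ± 0.30, adjusted p = 0.00558) and in R2 (log2 1.97 ± 0.24, adjusted p = 1.23e-05). Dna2 went against most of its list in monocytes, where it was at 155, 138 and 149 CPM against 3.61, 3.48 and 3.07 in naive R1 (log2 -5.43 ± 0.26, adjusted p = 5.13e-14). Of 62 further mitosis genes, CAWS raised 6 in R1 (median log2 0.59), 19 in R2 (1.04) and 3 in R3 (0.42), and lowered 0. Knstrn, a spindle protein, rose in all 3: it was at 17.8, 13.9 and 16.4 CPM in naive R1 and 24.8, 41.4 and 41.9 in CAWS R1 (log2 1.16 ± 0.21, adjusted p = 0.00101), with log2 changes of 1.38 ± 0.22 in R2 (adjusted p = 0.000199) and 0.71 ± 0.22 in R3 (adjusted p = 0.0324). Tk1, thymidine kinase, stands in both lists and rose in R2 (log2 1.28 ± 0.25, adjusted p = 0.00189). Against naive R1, naive R3 had 7 of the 36 replication genes higher and 0 lower, where 12.5% and 10.7% of tested genes were, and CAWS R3 had 7 higher and 0 lower against CAWS R1, where 13.1% and 16.3% were. Against monocytes, 22 to 28 of the 36 and 35 to 57 of the 62 were higher in the 4 comparisons, with 2 and 4 lower in each, where 24.8% to 33.1% of tested genes were higher and 22.8% to 30.8% lower.

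The D cyclins carry growth signals to the RB and E2F switch ahead of the members, and Ccnd2 fell with CAWS in all 3 populations. Ccnd2 was at 85.9, 64.9 and 72.6 CPM in naive R1 and 29.3, 38.9 and 34.6 in CAWS R1, at 160, 130 and 127 and then 54.5, 85.9 and 63.2 in R2, and at 140, 117 and 105 and then 45.8, 45.0 and 48.1 in R3. No naive and CAWS ranges overlapped, and it fell by 1.12 ± 0.16 in R1, 1.03 ± 0.16 in R2 and 1.38 ± 0.16 in R3 on the log2 scale (adjusted p = 0.000154, 0.000135 and 4.72e-06). Ccnd1 was at 319, 292 and 313 CPM in naive R1 and 173, 203 and 232 in CAWS R1, at 405, 377 and 334 and then 251, 372 and 301 in R2, and at 519, 449 and 363 and then 301, 307 and 369 in R3. It fell in R1 (log2 -0.60 ± 0.14, adjusted p = 0.00934) and R3 (-0.45 ± 0.14, adjusted p = 0.0341), and missed the test in R2 (-0.27 ± 0.14, adjusted p = 0.243). In monocytes Ccnd1 was at 4.50, 4.64 and 4.65 CPM and Ccnd2 at 1.09, 2.25 and 1.74; log2 differences in the 4 heart groups were 6.06 to 6.59 for Ccnd1 and 4.77 to 6.36 for Ccnd2. Ccnd3, the third D cyclin, was higher in monocytes, with log2 differences of -2.14 to -3.07, and rose with CAWS in R2 (log2 0.50 ± 0.13, adjusted p = 0.0147). Over the list of 21 cyclin D, CDK, RB and E2F genes, CAWS raised 1 and lowered 2 in R1, raised 3 and lowered 1 in R2, and raised 2 and lowered 2 in R3, where 6.07%, 6.79% and 6.7% of tested genes rose and 2.87%, 3.5% and 8.29% fell.

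Of 17 inhibitors of the cell cycle, CAWS raised 4 and lowered 0 in R1, raised 2 and lowered 0 in R2, and raised 2 and lowered 3 in R3, beside the same shares of all tested genes (6.07%, 6.79% and 6.7% risen, 2.87%, 3.5% and 8.29% fallen). Cdkn1a, which encodes p21, was at 139, 148 and 138 CPM in naive R1, 83.6, 87.3 and 77.4 in naive R2, 92.9, 90.4 and 86.7 in naive R3, and 142, 50.4 and 62.6 in monocytes. With CAWS it was at 136, 179 and 191 CPM in R1, 88.7, 120.1 and 132 in R2, and 72.9, 88.3 and 98.3 in R3. Its changes with CAWS missed the test (log2 0.25, 0.46 and -0.06; adjusted p = 0.617, 0.296 and 0.911), and it was lower in CAWS R3 than in CAWS R1 (log2 -0.96 ± 0.26, adjusted p = 0.0086). Cdkn1b, which encodes p27, was at 68.5, 54.3 and 71.7 CPM in naive R1, 70.1, 76.3 and 77.9 in naive R2, 65.5, 64.5 and 66.02 in naive R3, and 91.7, 67.4 and 82.4 in monocytes. After CAWS it was at 68.3, 74.2 and 65.7 CPM in R1, 71.3, 69.2 and 74.4 in R2, and 60.1, 69.6 and 89.5 in R3. Its ranges overlapped in each population, and its changes with CAWS were 0.10, -0.06 and 0.16 on the log2 scale (adjusted p = 0.731, 0.84 and 0.443). Cdkn1c, which encodes p57, was at 20.1, 19.6 and 16.8 CPM in naive R3 and 7.65, 5.99 and 7.34 in CAWS R3. It fell there by 1.43 ± 0.18 on the log2 scale (adjusted p = 9.99e-06), and this change differed from that in R1 (log2 difference -1.64 ± 0.23, adjusted p = 0.000192) and in R2 (-1.27 ± 0.23, adjusted p = 0.00253). Cdkn2a, which encodes p16 and Arf, was lower in CAWS R3 than in CAWS R1 (log2 -4.33 ± 0.52, adjusted p = 1.94e-06).

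Of 10 tested growth signal and self-renewal genes, CAWS lowered 2, 2 and 3 in R1, R2 and R3 and raised 0, where 2.87%, 3.5% and 8.29% of tested genes fell. Csf1r, the receptor of the main macrophage growth factor, was at 7929, 8165 and 7723 CPM in naive R1, 8506, 7961 and 7920 in naive R2, 5602, 5654 and 6271 in naive R3, and 3613, 2840 and 3679 in monocytes. With CAWS it was at 7722, 6580 and 6950 CPM in R1, 6281, 6727 and 6737 in R2, and 4508, 4453 and 4549 in R3. It fell in R2 (log2 -0.30 ± 0.09, adjusted p = 0.0394) and R3 (-0.38 ± 0.09, adjusted p = 0.00854), where no libraries overlapped, and missed the test in R1 (-0.16 ± 0.09, adjusted p = 0.307). Klf2, a factor of resting cells, fell in each population by 1.06, 0.83 and 1.32 on the log2 scale in R1, R2 and R3 (adjusted p = 0.000109, 0.000794 and 4.01e-06).

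Some members share sequence with other genes. By the annotation, Kif20a overlaps Brd8 and Cdc23, Mcm7 overlaps Ap4m1, Gins2 overlaps Gse1, Ccne2 overlaps Ints8, Cdc45 overlaps Ufd1, Ccna2 overlaps Exosc9, Aurka overlaps Cstf1 and Cdc20 overlaps Elovl1. Ccnb1, Ccnb2, Pcna and Tyms, the thymidylate synthase, have named pseudogenes. The strand setting of the counting is not known from the labels, so reads of such pairs could not be separated and these genes are less certain.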

How the data were processed

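The authors deposited raw counts per gene and library; featureCounts and mm10 are named in the submitters' processing notes, and a gene length stands beside each count, per the file headers. Neither the aligner nor the strand setting or tool version is given in the sources used here. The 21 single-library files matched the combined table exactly. Symbols came from RefSeq (GRCm38.p6) by gene ID for 25275 of 27179 IDs, and promoter sequences from RefSeq windows of that build. Genes passing filterByExpr (minimum count 10, minimum total 15), 13275 in all, were tested with edgeR 4.0.16 (R 4.3.3), by robust quasi-likelihood, TMM factors 0.909 to 1.06, 1 mean per group, 21 libraries, 14 residual degrees of freedom, two-sided, Benjamini-Hochberg adjusted p under 0.05 over all tested genes. Alternatives were DESeq2 1.42.0, other scaling and filters, only the groups compared, blocks, and each library left out. CPM and RPKM were computed from the counts on TMM-adjusted sizes. Replicates differed by a chi-square per degree of freedom of 9.95 to 131.

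Genes were named by a rule: 6 members in every group, up to 6 members per comparison, given with their libraries, with the smallest adjusted p among those past the test (3 with the smallest p where none passed), up to 3 genes per pathway list, and 5 pathway genes throughout. The other members past the test are named with their log2 differences. The members and lists were chosen with earlier results of these data known. Each pool was divided into R1, R2 and R3, per the series design, so replicate numbers were read as pools within a treatment: all 18 correlations of same-numbered deviations within a treatment were over 0.1 (0.122 to 0.531) over the 9892 genes with a mean log2 CPM of 2 or more, as were 16 of 45 across treatments and tissues (-0.194 to 0.594); over all 13275 tested genes 6 of the 18 were (lowest 0.0162). The reading as pools rests on the design. Scripts were tested on simulated data.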

Additional observations from a re-analysis of the deposited data

Results flagged for a closer look

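The effect of CAWS on Ccne1 differed between populations by edgeR's test of the interaction itself, by 3.99 on the log2 scale between R2 and R1 and by -2.63 between R3 and R2. The R3 and R2 difference missed the test with the pool as a block (adjusted p = 0.0525), both missed it without several single libraries, and the naive R2 level rests on 10 counts. Groups of 3 libraries were not tested for outlying samples.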

How the results depend on the processing

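Counts of members past edgeR's test, both directions together, depended on several choices, and the cause was not tested unless named. The share of all tested genes called moved as well. For rises with CAWS in R2 it was 6.79% in the main fit and 11.9% with only the groups compared. Without the naive libraries numbered 2 it was 4.17%. Shares for most other settings and for single libraries left out are not given here, so these counts do not describe the members alone. With no filter on low counts they were 3 for CAWS in R1, 0 for the R3 and R2 difference of effects and 2 for naive R2 against R1. With a stricter filter, which left 40 members and not Ccne1, both the R2 and R1 and the R3 and R2 differences of effects had 0. Fitted on only the groups compared, they were 9 for CAWS in R1, 21 in R2, 4 in R3, 7 for naive R2 against R1, 9 for CAWS R2 against R1 and 1 for CAWS R3 against R2. With a block for the number shared by all groups, they were 17 for CAWS in R2, 5 in R3, 10 for naive R3 against R2 and 4 for CAWS R2 against R1. With the pool within treatment as a block, they were 12 for naive R3 against R2, 6 for CAWS R2 against R1 and 0 for the R3 and R2 difference of effects, and no other call of a member was lost. That block was not run for CAWS against naive cells or for monocytes, whose pools differ. DESeq2 gave 4 for CAWS R2 against R1. Calls lost with DESeq2 were Ccnb2 for CAWS in R1 (adjusted p = 0.0943) and Plk1 for CAWS in R2 (0.0928). Ccne2 in CAWS R3 against R1 (0.0649) and Pcna in naive R3 against monocytes (0.0838) were lost too. Without the 3 naive libraries numbered 2, an alternative chosen after seeing the data, they were 1 for CAWS in R3 and 0 for the R2 and R1 difference, the R3 and R2 difference and naive R2 against R1.

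Leaving out each library in turn gave 1 to 3 for CAWS in R1, 4 to 8 in R2 and 1 to 4 in R3; 0 to 1 for the R2 and R1 and the R3 and R2 differences, and 0 for R3 and R1; 1 to 4 for naive R2 against R1, 2 to 8 for R3 against R1 and 1 to 12 for R3 against R2; 0 to 1, 9 to 12 and 0 for the same pairs after CAWS; and 27 to 38, 18 to 32, 31 to 36 and 35 to 39 for naive R1, R2, R3 and CAWS R3 against monocytes. Changes of sign were followed for 198 member results only. These were members past the test and the 3 with the smallest p where none passed. Pcna, Aurkb, Cdt1, Mki67 and Top2a were added against monocytes alone, and signs of the other member results were not followed. Among those followed, log2 differences that changed sign, none past the test where it did so, were all against monocytes. With 1 library left out they ran from -0.424 to 0.16 for Aurkb and -0.215 to 0.024 for Cdt1 in naive R3, the highest without replicate 2, and were 0.137 and 0.0033 without the naive libraries numbered 2. For Pcna they ran from -0.0535 to 0.308 in naive R1 (-0.0425 without monocyte replicate 1, -0.0535 without 3) and from -0.0194 to 0.343 in naive R2 (-0.00826 and -0.0194), the highest values, without monocyte replicate 2, being past the test. Summed levels of both gene classes kept within 1 SD under 2 other scalings.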
